A study of Mus musculus with 2 samples.

Results

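Chemokines and their receptors were examined in RNA-Seq counts of 2 primary mouse cell types. Genes were taken by name, as every row of the count table called *Ccl*, *Cxcl*, *Ccr* or *Cxcr* with a number and at most 1 trailing letter, together with *Cx3cl1*, *Cx3cr1* and the atypical receptors *Ackr1* to *Ackr4*. This gave 59 of the 24421 rows, of which 38 encode ligands and 21 encode receptors. At least 10 counts in either library were found for 28 of them, 19 had a highest count between 1 and 9, and 12 had 0 counts in both libraries.

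The chondrocytes came from rib cartilage of newborn mice, freed by collagenase after an earlier digestion that removed soft tissue, and were used within 2 passages. The dermal fibroblasts came from collagenase-digested dorsal skin of newborn mice. The paper states that the dermis was removed before the skin was dispersed by pipetting. Neither a treatment nor a sort is named for these cells, and strain and number of mice are not given in the sources used here. Each cell type was represented by 1 library, with 18788599 counts for chondrocytes and 17563724 for dermal fibroblasts. The libraries carried the markers of their labels. *Col2a1*, the main collagen of cartilage, had 1447098 counts in chondrocytes against 0 in dermal fibroblasts. *Acan* and *Sox9*, also of cartilage, had 148105 against 35 and 5045 against 342, and *Col1a1*, the main collagen of skin, had 39143 against 322379. The cytoskeletal gene *Actb* had 45139 against 50469.

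Chemokines are small secreted proteins that direct the migration of leukocytes and other cells along a gradient. They are classed by the spacing of their first cysteines into CC, CXC and CX3C chemokines, and CXC chemokines that carry the residues Glu-Leu-Arg (ELR) before the first cysteine attract neutrophils. Their receptors span the membrane several times and signal through inhibitory G proteins, whereas atypical receptors bind chemokines without this signal and remove or transport them. In skin and cartilage, stromal cells are known to make chemokines at rest and in inflammation, and their receptors are known mostly from leukocytes.

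Counts were scaled between the libraries by the trimmed mean of M values (TMM), and a fold is the ratio of scaled counts. Levels are given as per-million counts (CPM) on this scale. A count of 0 was set to 3 for a fold, which then depends on this value. Each interval is a 95% Clopper-Pearson interval of the fold and covers counting error alone. With 1 library per cell type, no difference has a replicate check, no p-value was computed, and the differences describe these libraries and not the variation between animals or cultures. In bulk RNA, a larger number of cells of a given type and more RNA per cell cannot be told apart.

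Most of the ligands with at least 10 counts were higher in dermal fibroblasts, and the receptors were fewer and less even. Of the 28 genes with at least 10 counts, 16 were over 2-fold higher in dermal fibroblasts, where 16.2% of all 14291 genes with this many counts were. In the opposite direction, 1 gene was over 2-fold higher in chondrocytes, where 11.8% of all genes were. The remaining 11 lay within 2-fold. By kind, 13 of 20 ligands and 3 of 8 receptors were over 2-fold higher in dermal fibroblasts, and 0 ligands and 1 receptor in chondrocytes. Whether ligands and receptors differed in this was not tested. For 11 of the 16 genes the whole interval lay beyond 2-fold (10.8% of all genes), and for the gene higher in chondrocytes it did not (7.21% of all genes). The median log2 fold of chondrocytes over dermal fibroblasts was -1.32 for the 28 genes, against -0.0035 for all genes.

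The minimum of 10 counts bears on these numbers, since a gene that reached it in a single library had to differ between them. This was the case for 8 of the 28 genes in dermal fibroblasts and for 1 in chondrocytes. Of all 14291 genes, 720 reached it in dermal fibroblasts alone and 605 in chondrocytes alone. Among the 19 genes with at least 10 counts in both libraries, 8 were over 2-fold higher in dermal fibroblasts (13.1% of the 12966 genes of this kind) and 0 in chondrocytes (8.83%). The whole interval lay beyond 2-fold for 6 and 0 of them, against 9.33% and 5.66% of these genes. The median log2 fold of the 19 was -0.96, and that of all genes of this kind was 0.00. Of the 20 ligands, 6 reached the minimum in dermal fibroblasts alone and 0 in chondrocytes alone. Among the 14 ligands that reached it in both libraries, 7 were over 2-fold higher in dermal fibroblasts and 0 in chondrocytes. Their median log2 fold was -1.005.

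**Figure D1:**
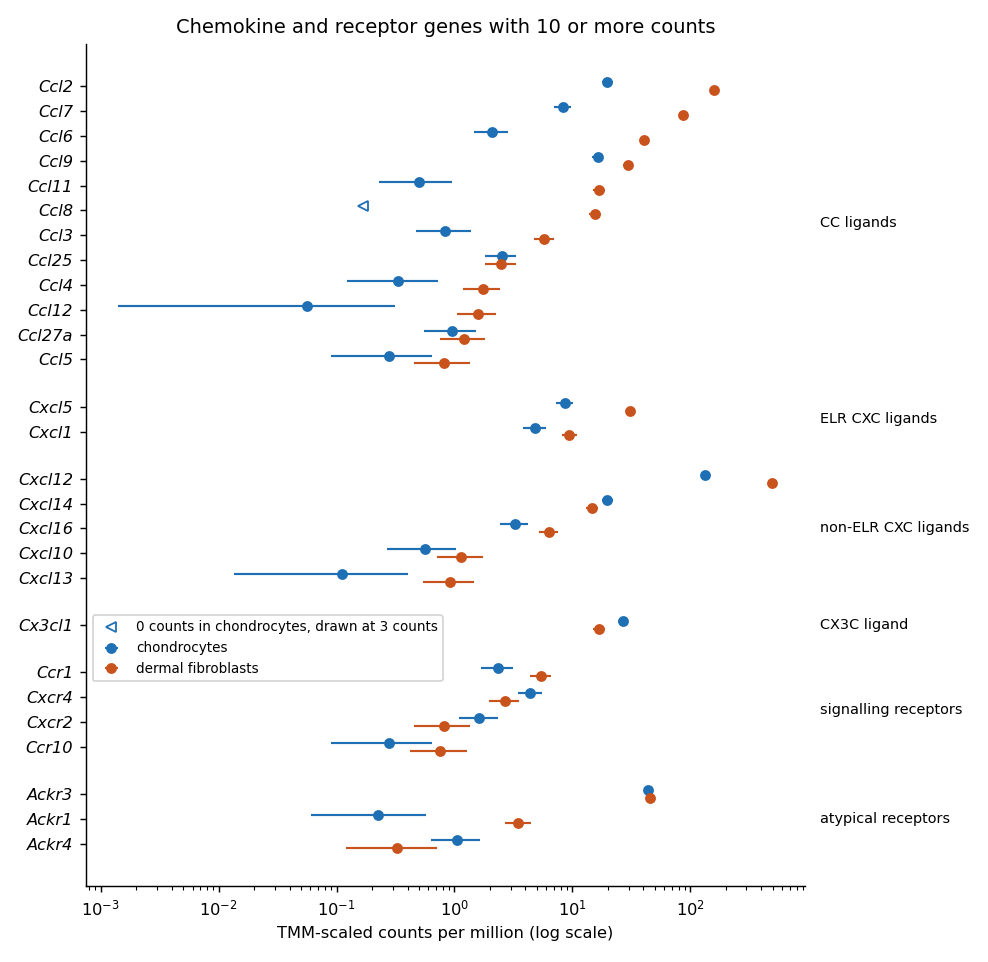
TMM-scaled CPM of the genes named in the text that had at least 10 counts, on a log scale, in the chondrocyte library (blue) and the dermal fibroblast library (orange), with exact 95% Poisson intervals as horizontal lines. The open triangle marks *Ccl8*, with 0 counts in chondrocytes, drawn at 3 counts. The orange points lie to the right for most CC ligands and for *Cxcl12*, and the points of *Ackr3* and *Ccl25* lie close together.

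The counts of the 38 ligands summed to 4494 in chondrocytes against 17206 in dermal fibroblasts. The sum thus stood 3.73-fold above that of chondrocytes (interval 3.61 to 3.85). A single gene, *Cxcl12*, made up a similar share of the ligand counts in both libraries, 53.2% in chondrocytes (interval 51.8% to 54.7%) and 52.6% in dermal fibroblasts (interval 51.8% to 53.3%). Without *Cxcl12* the sum was still 3.78-fold higher in dermal fibroblasts, with 2101 counts against 8158.

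*Cxcl12* encodes stromal cell-derived factor, which retains hematopoietic cells and guides migrating progenitors. It lies on chromosome 6 of GRCm38 (mm10) from 117168535 to 117181368. It had 2393 counts in chondrocytes against 9048 in dermal fibroblasts, a 3.68-fold excess in dermal fibroblasts (interval 3.52 to 3.85). It was the most abundant member by counts in both libraries. The 250 bases before its start (chr6:117168285-117168534, plus strand) are shown because this gene carried most of the ligand reads. They are GC-rich and hold none of the motifs described below.
Cxcl12: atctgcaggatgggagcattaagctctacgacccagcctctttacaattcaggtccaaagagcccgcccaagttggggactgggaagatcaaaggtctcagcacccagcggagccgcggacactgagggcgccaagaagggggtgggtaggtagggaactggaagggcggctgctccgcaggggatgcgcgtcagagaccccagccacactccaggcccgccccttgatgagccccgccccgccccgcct

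The other CXC ligands without the ELR residues differed less evenly. *Cxcl14*, which epithelia and fibroblasts make constitutively, had 355 counts in chondrocytes against 270 in dermal fibroblasts, and was 1.35-fold higher in chondrocytes (interval 1.15 to 1.59). *Cxcl16*, a membrane-bound chemokine that also acts as a scavenger receptor, had 58 and 116 counts, 1.95-fold higher in dermal fibroblasts (interval 1.41 to 2.72). *Cxcl14* was thus among the few ligands with more reads in chondrocytes, while *Cxcl16* lay at the border of the 2-fold threshold and passed it with total counts as the scaling (2.14-fold). *Cxcl13*, which attracts B cells, had 2 counts in chondrocytes against 17 in dermal fibroblasts, 8.28-fold higher there with an interval from 1.96 to 73.9, and 1.66-fold higher with a floor of 10 counts. *Cxcl10*, induced by interferon, had 10 and 21 counts, 2.04-fold higher in dermal fibroblasts with an interval from 0.922 to 4.86. The interval of *Cxcl10* includes equality, and its fold was under 2 with *Actb* (1.88), with totals without the 10 most abundant genes (1.98), with the upper quartile and with a pseudocount of 1 (1.95). Its annotated exons share 133 bases with those of *Art3* on the opposite strand, which had 8 and 86 counts, and whether the counting used the strand is not given in the sources used here.

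The largest differences were those of CC ligands in 2 gene clusters of chromosome 11. In the first, 6 genes lie within 144 kb, from *Ccl2* to *Ccl1* (82035577 to 82179812 in GRCm38). Their counts summed to 514 in chondrocytes against 5135 in dermal fibroblasts, 9.73-fold higher in dermal fibroblasts (interval 8.88 to 10.7). They made up 11.4% of the ligand counts in chondrocytes and 29.8% in dermal fibroblasts. The proteins of this cluster attract monocytes, eosinophils and T cells.

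*Ccl2* (82035577 to 82037452), the main attractant of monocytes, had 356 counts in chondrocytes against 2907 in dermal fibroblasts, 7.95-fold higher in the latter (interval 7.12 to 8.90). *Ccl7* (82045712 to 82047525), a related monocyte attractant, had 148 and 1599 counts, 10.5-fold higher (interval 8.88 to 12.5). Both were expressed in both libraries, and the difference was in their amount. *Ccl11* (82057832 to 82062955), the eosinophil attractant eotaxin, had 9 counts in chondrocytes against 311 in dermal fibroblasts, 33.6-fold higher (interval 17.5 to 74.3). *Ccl12*, a monocyte attractant found in rodents, had 1 and 29 counts, 28.2-fold higher with an interval from 4.68 to 1153, and 2.82-fold with a floor of 10 counts. *Ccl8*, which in the mouse acts through *Ccr8*, had 0 counts in chondrocytes against 289 in dermal fibroblasts. The excess was 93.8-fold over a floor of 3 counts (0.167 CPM), with an interval that starts at 75.8 and has no upper end. With a floor of 10 counts the fold was 28.1. The last gene of the cluster, *Ccl1*, had 0 counts in both libraries.

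The 250 bases before the start are shown for *Ccl12* (chr11:82101595-82101844) and *Ccl8* (chr11:82114935-82115184), both on the plus strand, because these neighbors were nearly silent in chondrocytes. Capitals mark TATAAA, whose last base lies 26 bases before the start of *Ccl12* and 27 bases before that of *Ccl8*.
Ccl12: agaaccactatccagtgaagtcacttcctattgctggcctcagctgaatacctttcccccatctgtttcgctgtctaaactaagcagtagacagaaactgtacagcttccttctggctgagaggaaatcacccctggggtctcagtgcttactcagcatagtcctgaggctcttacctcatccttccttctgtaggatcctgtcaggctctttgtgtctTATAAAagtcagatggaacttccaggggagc
Ccl8: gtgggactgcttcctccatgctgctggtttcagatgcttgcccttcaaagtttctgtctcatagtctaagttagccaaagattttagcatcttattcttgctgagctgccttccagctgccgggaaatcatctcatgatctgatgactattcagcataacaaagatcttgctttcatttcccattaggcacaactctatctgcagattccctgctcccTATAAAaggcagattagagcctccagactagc

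The second cluster holds 5 genes within 139 kb, from *Ccl5* to *Ccl4* (83525778 to 83664683). Its counts summed to 357 in chondrocytes against 1450 in dermal fibroblasts, 3.95-fold higher in dermal fibroblasts (interval 3.52 to 4.45). The genes differed among themselves. *Ccl9*, which attracts myeloid cells through *Ccr1*, had 294 and 544 counts and was 1.8-fold higher (interval 1.56 to 2.08). *Ccl6*, whose protein also binds *Ccr1*, is its neighbor on the same strand, with 9250 bases between the annotated spans. It had 37 counts in chondrocytes against 753 in dermal fibroblasts, 19.8-fold higher (interval 14.2 to 28.4). The intervals of these neighbors do not overlap. *Ccl3*, an inflammatory attractant of macrophages, had 15 and 106 counts, 6.88-fold higher (interval 3.99 to 12.7). *Ccl4*, a close relative of *Ccl3*, had 6 and 32 counts, 5.19-fold higher (interval 2.14 to 15.2). *Ccl5*, an attractant of T cells and macrophages, had 5 and 15 counts, 2.92-fold higher with an interval from 1.01 to 10.3, and 1.46-fold with a floor of 10 counts.

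**Figure D2:**
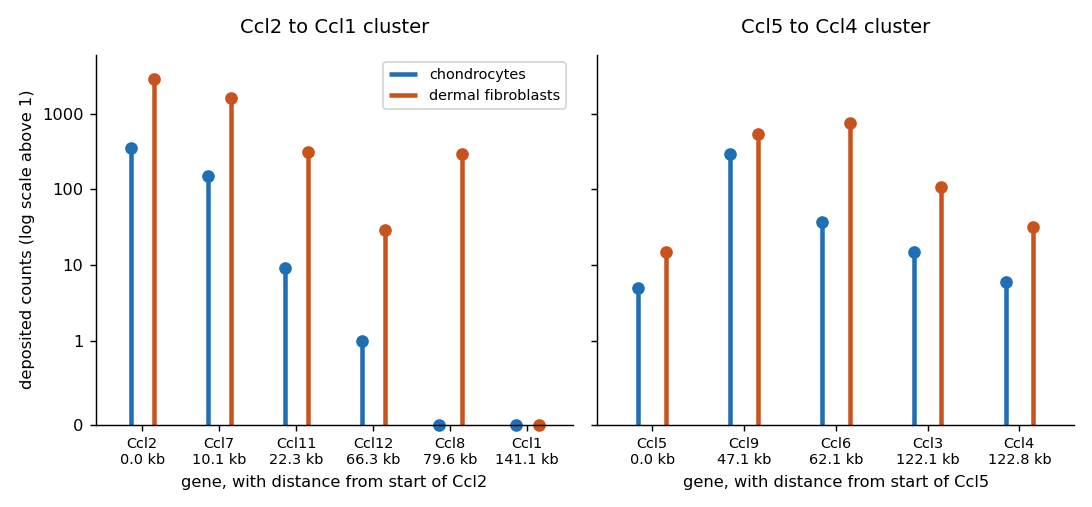
Deposited counts of the CC ligand genes of the chromosome 11 clusters in genomic order, in chondrocytes (blue) and dermal fibroblasts (orange), on a scale that is logarithmic above 1, with the distance of each gene from the first in kb. Every gene with reads had more in dermal fibroblasts, from 15 against 5 counts for *Ccl5* to 2907 against 356 for *Ccl2*.

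All 10 genes of these clusters with at least 10 counts had more reads in dermal fibroblasts, and 9 of them were over 2-fold higher there, against 16.2% of all genes. *Ccl4*, *Ccl5*, *Ccl8*, *Ccl11* and *Ccl12* reached 10 counts in dermal fibroblasts alone, so they had to have more reads there. Outside these clusters, the CC ligands with at least 10 counts, *Ccl25* and *Ccl27a*, lay within 2-fold. *Ccl25* on chromosome 8, a ligand of *Ccr9* made in thymus and gut, had 45 and 46 counts and a fold of 1.0 (interval 0.651 to 1.55), and its direction turned with the scaling. *Ccl27a* on chromosome 4, known as a product of keratinocytes, had 17 counts in chondrocytes against 22 in dermal fibroblasts, 1.26-fold higher in dermal fibroblasts with an interval from 0.639 to 2.53. Of its 75-base windows, 35.2% are identical to windows of other protein-coding transcripts, such as those of *Ccl27b*, so its count is uncertain. *Ccl21a*, *Ccl21b*, *Ccl21c*, *Ccl26* and *Ccl27b* had 0 counts in both libraries, and all but *Ccl26* share nearly all of their sequence with a copy.

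**Figure D3:**
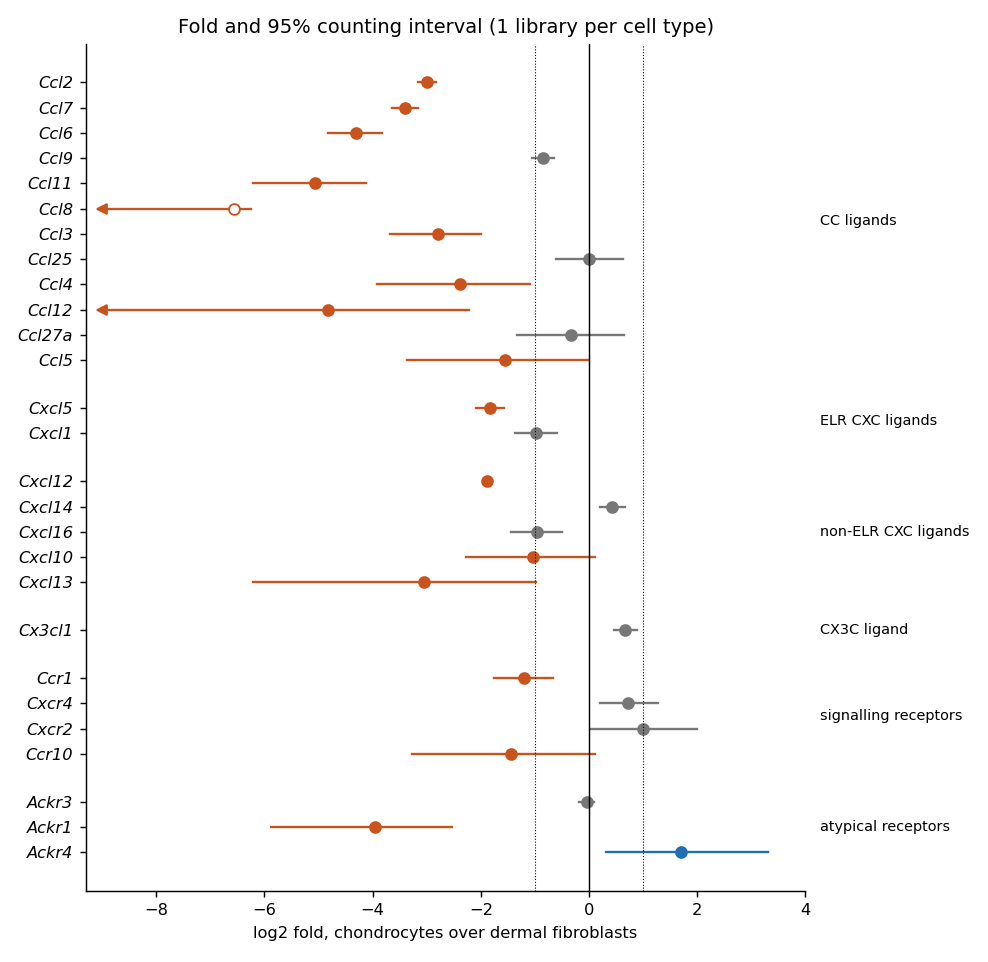
Log2 fold of chondrocytes over dermal fibroblasts for the genes named in the text that had at least 10 counts, with 95% counting intervals, grouped by role; dotted lines mark 2-fold, blue and orange points lie beyond it and gray points within it. The open point of *Ccl8* is a bound (0 counts in chondrocytes), and arrows mark intervals that leave the plot. CC ligands reach the lowest values, and the receptors lie on both sides of 0, from -3.96 for *Ackr1* to 1.70 for *Ackr4*.

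Of the ELR chemokines, which act on neutrophils through *Cxcr2*, 2 had at least 10 counts. *Cxcl5* had 155 counts in chondrocytes against 566 in dermal fibroblasts, 3.56-fold higher in dermal fibroblasts (interval 2.97 to 4.27). *Cxcl1* had 86 and 174 counts, 1.97-fold higher (interval 1.51 to 2.58). Both neutrophil attractants thus had more reads in dermal fibroblasts, and *Cxcl1* passed 2-fold only with total counts as the scaling (2.16-fold) among the scalings tried. *Cxcl2* had 4 and 2 counts, *Cxcl3* had 0 and 5, and *Cxcl15* had 0 in both.

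*Cx3cl1* encodes fractalkine, a chemokine held on the cell membrane by a stalk and released by shedding. It had 483 counts in chondrocytes against 311 in dermal fibroblasts, and was 1.60-fold higher in chondrocytes (interval 1.38 to 1.85). By counts, though not per length, it came next after *Cxcl12* among the ligands of the chondrocyte library, with 10.7% of the ligand counts (interval 9.86% to 11.7%). Among the ligands with at least 10 counts, *Cx3cl1* and *Cxcl14* were those whose whole interval lay on the side of chondrocytes.

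The counts of the 21 receptors summed to 1006 in chondrocytes against 1120 in dermal fibroblasts. The sum was 1.08-fold higher in dermal fibroblasts, with an interval from 0.995 to 1.18. *Ackr3*, the atypical receptor that removes *Cxcl12* from the surroundings of cells, held 78.5% of the receptor counts in chondrocytes and 74.8% in dermal fibroblasts. It had 790 and 838 counts, 1.03-fold higher in dermal fibroblasts with an interval from 0.936 to 1.14, and the direction turned with *Actb* as the scaling (1.05-fold higher in chondrocytes). Its ligand *Cxcl12* differed 3.68-fold between the same libraries. Without *Ackr3*, the receptors summed to 216 and 282 counts, 1.27-fold higher in dermal fibroblasts (interval 1.06 to 1.52).

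*Cxcr4*, the signaling receptor of *Cxcl12*, had 79 counts in chondrocytes against 49 in dermal fibroblasts and was 1.66-fold higher in chondrocytes (interval 1.15 to 2.42). *Cxcr2* had 29 and 15 counts, 1.99-fold higher in chondrocytes (interval 1.03 to 3.99), and was over 2-fold higher under 3 of the other scalings. *Ccr1*, a receptor of myeloid cells for *Ccl3*, *Ccl6* and *Ccl9*, had 42 and 99 counts, a 2.29-fold excess in dermal fibroblasts (interval 1.58 to 3.38). The signaling receptors with the most reads therefore differed in opposite directions. *Ccr10*, the receptor of *Ccl27a* and *Ccl28*, had 5 and 14 counts, 2.73-fold higher with an interval from 0.928 to 9.67, and 1.36-fold with a floor of 10 counts. The interval of *Ccr10* includes equality.

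*Ackr1*, known from venular endothelium and red cells, had 4 counts in chondrocytes against 64 in dermal fibroblasts and was 15.6-fold higher there (interval 5.80 to 58.9). Its annotated span overlaps that of *Cadm3* on the same strand without shared exon bases, and *Cadm3* had 82 and 862 counts. *Ackr4*, a scavenger of *Ccl19*, *Ccl21* and *Ccl25*, had 19 counts in chondrocytes against 6 in dermal fibroblasts. It was 3.25-fold higher in chondrocytes (interval 1.25 to 9.95), or 1.95-fold with a floor of 10 counts, and was the member counted above as over 2-fold higher there. Its exons share 189 bases with those of *Acad11* on the opposite strand, which had 404 and 351 counts, so part of its reads may not be its own. *Ackr2* stayed under 10 counts, with 5 and 3.

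Most other receptors had few or no reads. *Ccr4*, *Ccr6*, *Ccr8* and *Cxcr3* had 0 counts in both libraries, *Ccr2* had 3 and 0, *Cx3cr1* and *Cxcr6* had 2 in each, *Ccr3* had 1 in each, and *Ccr9* had 0 and 1. No difference was detectable for these genes at this depth. Just below the minimum of 10 counts lay 7 members with a highest count of 5 to 9, which were *Cxcl9* (1 in chondrocytes against 8 in dermal fibroblasts), *Cxcr5* (5 and 7), *Ackr2* (5 and 3), *Ccl28* (5 and 1), *Ccr7* (5 and 0), *Ccl19* (0 and 5) and *Cxcl3* (0 and 5). Just above it, the members with the lowest highest count were *Ccr10*, with 14, and *Ccl5*, with 15.

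Ligands and receptors were then set side by side in 35 textbook pairs. Both partners reached 10 counts for 8 pairs in chondrocytes and for 12 pairs in dermal fibroblasts, and the 8 pairs were among the 12. The further pairs rested on *Ccl4* (6 and 32 counts), *Ccl5* (5 and 15) and *Ccr10* (5 and 14). These genes reached 10 counts in dermal fibroblasts alone, so the pair counts depend on that threshold. Of all 14291 genes, 720 did so in dermal fibroblasts alone and 605 in chondrocytes alone. The shared pairs included *Cxcl12* with *Cxcr4* and *Ackr3*, *Cxcl1* and *Cxcl5* with *Cxcr2*, and *Ccl3*, *Ccl6* and *Ccl9* with *Ccr1*. The list is not complete, since most ligands bind further receptors, *Ackr1* among them. Within it, several ligands with large differences had no partner at 10 counts. *Ccl2* and *Ccl7* were paired with *Ccr2*, which had 0 counts in dermal fibroblasts, *Ccl8* with *Ccr8*, which also had 0, and *Ccl11* with *Ccr3*, which had 1. *Cx3cl1*, with 483 counts in chondrocytes, stood against 2 counts of *Cx3cr1*.

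Levels of different genes were compared per length, as TMM-scaled CPM per kb of annotated exons. On this scale, the highest levels in dermal fibroblasts were those of *Ccl2* (139), *Ccl7* (108), *Cxcl12* (60.1), *Ccl8* (30.7) and *Ccl6* (22.8). In chondrocytes they were those of *Ccl2* (17.4), *Cxcl12* (16.3), *Ackr3* (13.2), *Cxcl14* (10.9) and *Ccl7* (10.3). *Cxcl12*, which led by counts, thus came after *Ccl2* and *Ccl7* per length in dermal fibroblasts, while in chondrocytes the counting intervals of *Ccl2* and *Cxcl12* overlapped. The *Cxcl12* length of 8176 bases joins the exons of all its annotated transcripts, so its level per length is a low estimate.

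The 250 bases before the start were searched on both strands for GGGA followed by any 4 bases and CC, a pattern bound by NF-kappa B (NF-κB), for TGANTCA, the AP-1 site, and for TATAAA. Sequences were found in RefSeq (GRCm38.p6) for 19 of the 28 genes. The NF-κB pattern was present in 5 of the 19, where 17.6% of all 32817 such sequences hold it, AP-1 in 2 (6.75%), and TATAAA in 8 (12.4%). The NF-κB pattern was found in *Ccl27a*, *Ccr1*, *Cxcl1*, *Cxcl10* and *Cxcl13*, and in none of the other windows. All of these had more reads in dermal fibroblasts, with intervals that include equality for *Ccl27a* and *Cxcl10*. Whether the pattern goes with the direction of a gene was not tested. Those without it included *Ccl6*, *Ccl8*, *Ccl12* and *Cxcl12*, higher in dermal fibroblasts, and *Cx3cl1*, *Cxcl14* and *Cxcr4*, higher in chondrocytes. No window was available for *Ccl2*, *Ccl7*, *Ccl11* and *Cxcl5*, among others. A match is a string of letters and not a bound site.

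The windows of *Cxcl1* (chr5:90890995-90891244, plus strand) and *Cxcl10* (chr5:92348890-92349139, minus strand) are shown because they hold more than 1 match to the NF-κB pattern. Capitals mark the NF-κB pattern, of which 3 matches were found in *Cxcl1*, with 2 of them overlapping, and 2 in *Cxcl10*, and an AP-1 site in *Cxcl10*.
Cxcl1: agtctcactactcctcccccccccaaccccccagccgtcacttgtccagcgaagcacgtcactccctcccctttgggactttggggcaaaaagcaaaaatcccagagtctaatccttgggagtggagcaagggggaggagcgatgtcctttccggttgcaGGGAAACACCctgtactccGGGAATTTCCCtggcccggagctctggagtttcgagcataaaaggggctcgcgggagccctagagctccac
Cxcl10: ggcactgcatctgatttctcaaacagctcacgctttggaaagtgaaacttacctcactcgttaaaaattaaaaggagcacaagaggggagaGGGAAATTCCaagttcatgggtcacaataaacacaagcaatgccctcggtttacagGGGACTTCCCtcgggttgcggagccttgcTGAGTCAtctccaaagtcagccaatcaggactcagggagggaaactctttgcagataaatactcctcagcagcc

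Genes that induce, transmit or process chemokine signals were described from 4 lists, 3 of which are given here. Of 26 genes for inducing cytokines, their receptors and the NF-κB pathway, 23 had at least 10 counts. Of these, 8 were over 2-fold higher in dermal fibroblasts, against 16.2% of all genes, and 0 in chondrocytes, against 11.8%. The median log2 fold was -0.66. *Il4ra*, the receptor chain shared by interleukins that induce eotaxin, had 683 counts in chondrocytes against 4993 in dermal fibroblasts, 7.12-fold higher (interval 6.57 to 7.72). The receptors *Il1r1* and *Tnfrsf1a* lay within 2-fold, with folds of 1.25 and 1.17 in favor of dermal fibroblasts.

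Of the 33 genes that transmit receptor signals, all with at least 10 counts, 26 lay within 2-fold, 6 were over 2-fold higher in dermal fibroblasts (16.2% of all genes were) and 1 in chondrocytes (11.8% of all genes). The median log2 fold was -0.39, and the share higher in dermal fibroblasts was near that of all genes. The G protein subunits *Gnai2* and *Gnb1* and the GTPase *Rac1*, the most abundant of the list, had folds of 1.35 and 1.07 in favor of dermal fibroblasts and 1.05 in favor of chondrocytes. *Tiam1*, an activator of *Rac1*, had 1496 counts in chondrocytes against 417 in dermal fibroblasts, 3.68-fold higher in chondrocytes (interval 3.30 to 4.12). *Elmo1* and *Ptk2b*, which link receptors to the cytoskeleton, were 2.61-fold and 2.21-fold higher in dermal fibroblasts.

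Of the 13 genes that process or bind chemokines, 11 had at least 10 counts, 7 were over 2-fold higher in dermal fibroblasts (16.2% of all genes) and 1 in chondrocytes (11.8% of all genes), and the median log2 fold was -1.56. *Dpp4*, a peptidase that trims *Cxcl12* and other chemokines, had 15 counts in chondrocytes against 118 in dermal fibroblasts, 7.66-fold higher (interval 4.46 to 14.1). *Mmp14* and *Mmp2*, metalloproteinases that cleave chemokines, were 6.35-fold and 2.96-fold higher in dermal fibroblasts. *Sdc4*, a heparan sulfate proteoglycan that binds *Cxcl12*, had 6003 counts in chondrocytes against 951 in dermal fibroblasts, 6.48-fold higher in chondrocytes (interval 6.05 to 6.95).

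**Figure D4:**
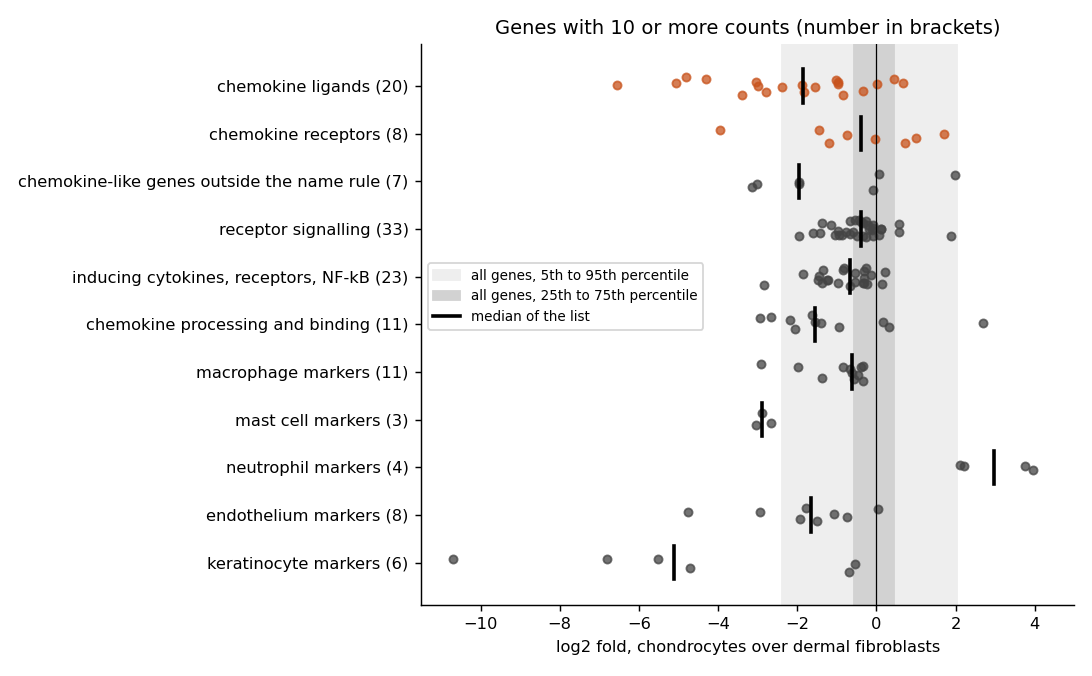
Log2 fold of chondrocytes over dermal fibroblasts for genes with at least 10 counts in each list (points, with the number of genes in brackets) and the median of each list (bar), over the 25th to 75th and 5th to 95th percentiles of all 14291 genes (gray bands). The bands show the spread of single genes. The ligand median is -1.86 and the receptor median -0.40, against -0.0035 for all genes. The ligand median includes genes that reached 10 counts in dermal fibroblasts alone, whose direction was set by that minimum.

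Markers of other cells of skin and cartilage were compared because leukocytes and endothelium also make these genes. All 13 macrophage markers had reads in both libraries, with *Lyz2* (1046 counts in chondrocytes against 1639 in dermal fibroblasts), *Cd68* (423 and 600) and *Mrc1* (157 and 635) the most abundant, and their sum was 132 CPM in chondrocytes and 229 CPM in dermal fibroblasts, a 1.74-fold excess. Of 11 markers with at least 10 counts, 3 were over 2-fold higher in dermal fibroblasts, where 16.2% of all genes were. These 3 were *Fcgr1* (7.55-fold), *Mrc1* (3.94-fold) and *Csf1r* (2.62-fold). No list was set for chemokine genes known from macrophages, and those given here are examples. The folds in favor of dermal fibroblasts were 19.8 for *Ccl6*, 6.88 for *Ccl3*, 5.19 for *Ccl4*, 2.29 for *Ccr1* and 1.8 for *Ccl9*. *Pf4*, which some macrophages also make, went the other way. It had 131 counts in chondrocytes against 34 in dermal fibroblasts, 3.96-fold higher in chondrocytes. *Cx3cr1* and *Ccr2*, receptors of macrophages and monocytes, had at most 3 counts. The part of macrophages in these values was not tested.

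Of 8 endothelial markers, 6 were over 2-fold higher in dermal fibroblasts, against 16.2% of all genes. The sum of the 8 went from 17.5 to 50.9 CPM, 2.92-fold, beside the 15.6-fold of *Ackr1*. *Kdr* (70 counts in chondrocytes against 276 in dermal fibroblasts), *Cdh5* (68 and 198) and *Pecam1* (70 and 120) were the most abundant. The neutrophil list summed to 4.29 CPM in chondrocytes and 0.706 in dermal fibroblasts, 6.08-fold higher in chondrocytes, beside the 1.99-fold of *Cxcr2*, and *S100a9* (27 and 6 counts), *S100a8* (21 and 5) and *Mpo* (15 and 1) led it. Mast cell markers summed to 0.892 and 5.70 CPM, with *Kit* (6 and 51 counts), *Tpsb2* (3 and 23) and *Cpa3* (2 and 13) the most abundant and *Fcer1a* at 0 in both libraries. The keratinocyte list summed to 8.98 and 249 CPM, 27.7-fold higher in dermal fibroblasts, led by *Krt14* (17 and 1939), *Krt5* (1 and 1693) and *Dsp* (27 and 722), beside the fold of 1.26 of *Ccl27a*. Of its 6 genes with at least 10 counts, 4 were over 2-fold higher in dermal fibroblasts (16.2% of all genes). The others, *Krt10* (72 and 108) and *Trp63* (42 and 70), lay within 2-fold. T cell markers (29 and 64 counts in all), with *Lck* (24 and 43) and *Cd4* (5 and 21) the most abundant, had *Cd3d*, *Cd3e*, *Cd3g* and *Cd8a* at 0 in both libraries, and of the dendritic cell markers (69 and 234 counts, of which *Itgax* had 45 and 215, *H2-Eb1* 23 and 9, and *H2-Ab1* 0 and 6) *Cd207* and *Flt3* were at 0. The part of these cells in the chemokine values was not tested.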

How the data were processed

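RNA-Seq covered primary chondrocytes and primary dermal fibroblasts, with 1 library each. The authors called bases with CASAVA 1.8.2, mapped the single-end reads (75 bp, strand-marking mRNA kit) against mm10 using TopHat2 2.0.13, Bowtie2 2.2.3 and SAMtools 0.1.19 and deposited unscaled read counts per gene symbol. The program, annotation and strand setting of the counting are not given in the sources used here, so reads shared by overlapping or near-identical genes may be placed differently. Of the 28 members with at least 10 counts, 25 share no 75-base window with another protein-coding transcript of GENCODE vM1.

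Folds of TMM-scaled counts (edgeR 4.0.16, R 4.3.3) and Clopper-Pearson intervals (scipy 1.17.1) were computed with Python 3.11.15 and tested on simulated data. A quasi-likelihood test needs replicates and was not run. Without molecular identifiers, reads may be copies of 1 molecule, so intervals and floors cover counting error only. Exon lengths were those of GENCODE vM1 and positions those of RefSeq on GRCm38. Alternatives were 5 other scalings, DESeq2 1.42.0 size factors among them, and other floors, minimum counts and thresholds.

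All members with at least 10 counts were named, save that some genes of the members and lists enter the counts but are not reported here. From each pathway list, the 3 most abundant genes and up to 2 largest folds over 2 in each direction were named, all at 100 counts or more. From the marker lists, the 3 most abundant were named as a rule, and some others after their values were seen. The members and lists were chosen with earlier results of these data known. The marker lists were macrophage, mast cell, T cell, neutrophil, dendritic cell, endothelium, keratinocyte, skeletal muscle, chondrocyte and dermal fibroblast.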

Additional observations from a re-analysis of the deposited data

How the results depend on the processing

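No paired analysis was possible because a single library stood for each cell type. Leaving out a replicate was not possible for the same reason. Members over 2-fold higher in dermal fibroblasts numbered 16, and their number lay between 15 and 18 under the other scalings. It was 10 with a fold over 4, and 8 with at least 10 counts in both libraries, a minimum chosen after seeing the data. Both settings remove genes by construction. The number over 2-fold higher in chondrocytes was 1 (*Ackr4*). It was 2 with the upper quartile, with totals without the 10 most abundant genes and with *Actb*, which added *Cxcr2*, and 3 with a minimum of 1 count. It was 0 with a floor of 10 counts, a minimum of 30, a fold over 4, the whole interval beyond 2-fold, or at least 10 counts in both libraries. For all genes, a fold over 4 left 731 higher in chondrocytes and 979 in dermal fibroblasts, and the interval beyond 2-fold left 1031 in chondrocytes. Relative to TMM, total counts moved every log2 fold by -0.14 and *Actb* by 0.12. The ligand sum was then 4.10-fold and 3.42-fold higher in dermal fibroblasts, against 3.73. The receptor sum was 1.19-fold higher with total counts and 1.27-fold without *Ackr3*, against 1.08. The folds of 28 genes were compared under 8 alternatives. Of 224 values, 5 left the counting interval, 13 values in 8 genes crossed 2-fold, and 3 values in *Ccl25* and *Ackr3* changed direction. With a floor of 10 counts, *Ccl8* was at least 28.1-fold higher in dermal fibroblasts, and *Ccl12* and *Cxcl13* were 2.82-fold and 1.66-fold higher. The depth limits the 31 members under 10 counts, whose folds entered only the counts with a minimum of 1.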

Other observations

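Genes that act like chemokines or their receptors but fall outside the name rule differed in both directions. Of 11 such genes, 7 had at least 10 counts. Of these, 4 were over 2-fold higher in dermal fibroblasts (16.2% of all genes) and 1 in chondrocytes (11.8% of all genes). *Rarres2*, which encodes chemerin, had 51 counts in chondrocytes against 464 in dermal fibroblasts, 8.86-fold higher in dermal fibroblasts (interval 6.62 to 12.1). Its receptor *Cmklr1* had 280 and 1112 counts and was 3.87-fold higher in the same library (interval 3.39 to 4.42), so that a ligand and its receptor were both higher there. *Mif*, a cytokine that also binds *Cxcr4*, was the most abundant of the list with 5049 and 4958 counts and lay within 2-fold (1.05-fold higher in chondrocytes). *Cd74*, which serves as the surface receptor of *Mif* and as the invariant chain of antigen presentation, had 53 and 441 counts, 8.10-fold higher in dermal fibroblasts (interval 6.08 to 11). *Pf4*, a CXC chemokine of platelets and megakaryocytes that is also made by some macrophages, had 131 counts in chondrocytes against 34 in dermal fibroblasts, 3.96-fold higher in chondrocytes (interval 2.70 to 5.95). Its neighbor in function *Ppbp*, named after its values were seen, had 12 and 13 counts.

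Skeletal muscle markers were abundant in both libraries, led by *Actc1* (7288 counts in chondrocytes against 7970 in dermal fibroblasts), *Myh3* (7784 and 6497) and *Acta1* (6259 and 4705). Of the 7 markers, 2 were over 2-fold higher in chondrocytes (11.8% of all genes) and 0 in dermal fibroblasts (16.2% of all genes). These 2 were *Myod1* (2328 and 496 counts) and *Tnnt3* (2072 and 772). All 8 chondrocyte markers were over 2-fold higher in chondrocytes, where 11.8% of all genes were. In dermal fibroblasts, 7 of 8 dermal fibroblast markers were (16.2% of all genes), the exception being *Lum* (3191 and 2881 counts).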
